A study of Macaca mulatta with 252 samples.

Results

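The genes described here encode the machinery that stores transmitter in synaptic vesicles and releases it: the synaptotagmins, the SV2, synapsin, synaptogyrin and synaptoporin vesicle proteins, the SNARE proteins of the VAMP, syntaxin and SNAP families, the syntaxin binding proteins, complexin, RIMS, UNC13 and the RAB3 group. They were chosen by gene symbol alone from the array's annotation, each represented by the probe set with the highest mean signal, with SYT6 and SYT17 left out. This gave 57 genes of the 14133 genes with a probe set of their own. The symbol rule itself used no measured value, but the members were chosen with earlier results of these data known. By family there were 9 synaptotagmins, 6 vesicle membrane proteins and synapsins, 6 VAMPs, 11 syntaxins and 3 syntaxin binding proteins. Besides these came 4 genes of the complexin, RIMS and UNC13 group, 3 RAB3 proteins and 3 regulators of RAB3. The SNAP pattern gave 2 genes, SNAP47 and SNAP91, of which SNAP91 is no SNARE protein and was matched by its symbol only. The symbol pattern for RAB3 also took in 10 genes numbered from RAB30 to RAB39, which encode trafficking RAB proteins outside the RAB3 family; they are counted among the 57 and named where they enter a count of called members. SNAP25, CPLX1, SYP, SYT2 and NSF were not analysed here, because no probe set carried their symbol alone.

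At a presynaptic terminal, vesicles filled with transmitter are tethered, docked at the active zone and primed before calcium triggers their fusion. Synapsins hold vesicles in reserve, RAB3 proteins and RIMS help dock them, and UNC13 proteins prime them by opening syntaxin. Fusion is driven by a SNARE complex of a vesicle VAMP with syntaxin and SNAP25 on the plasma membrane, complexins bind the assembled complex, and synaptotagmins of the SYT1 type sense calcium. Several members, among them VAMP4, VAMP7, VAMP8, STX5, STX12 and STX16, serve membrane traffic at the Golgi or in endosomes instead.

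RNA was measured in adult rhesus macaque brain, in neocortical layers, hippocampal fields and layers of the lateral geniculate nucleus (LGN, the visual relay of the thalamus) cut out by laser capture, with one-colour Affymetrix rhesus arrays. The 225 arrays fell into 57 groups by region, 54 of 4 arrays and 3 of 3, and came from 6 untreated animals, here called males A, B and C and females D, E and F. Captured neocortex comprised layers 2, 3, 5 and 6 of anterior cingulate (ACG), orbitofrontal (OFC) and primary motor cortex (M1), layers 2 to 6 of dorsolateral prefrontal (DLPFC), primary somatosensory (S1), primary auditory (A1), second visual (V2), middle temporal (MT) and inferior temporal cortex (TE), and layers 2, 3, 4A, 4B, 4Ca, 4Cb, 5 and 6 of primary visual cortex (V1). The dentate gyrus (DG) and fields CA1, CA2 and CA3 represented the hippocampus, and the LGN was represented by its magnocellular, parvocellular and koniocellular layers. A further 27 control arrays, 15 of a commercial whole brain RNA pool, 9 of CA3 and 3 of MT, entered no comparison.

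Arrays correlated with their own group's mean at a median of 0.983 and at least 0.941, and array medians lay between 4.72 and 5 log2 units. Among region markers, PROX1 was highest in DG, RGS14 in CA2 and TCF7L2 in the koniocellular LGN, while FEZF2, a deep layer marker, was highest in CA2 instead of a deep cortical group. Arrays were amplified in batches that the labels do not assign to samples. The spread of the hybridisation controls separated 2 sets of areas, a narrow one with A1, ACG, M1, S1, TE and V1 and a wide one with DLPFC, MT, OFC, V2, the hippocampus and the LGN. These sets stand in for the batches and need not match them. Within the narrow set the controls averaged 14.15 in V1 and 13.81 to 13.93 in the other areas. A difference kept within a set therefore cannot be told apart from a batch difference inside it. Below, counts of members that passed the adjusted p are followed by how many kept it within a control set, with values for the named genes that lost a call there. All levels are log2 RMA intensities, and each probe set is compared only with itself across samples.

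Most of the release genes gave signal above the array's middle. Over all groups 48 of the 57, or 84.2%, exceeded the median of all probe sets, against 72.9% of all genes. Their median range between the lowest and the highest group mean was 1.3 log2 units against 1.13 for all genes, and 15 of them (26.3%) spanned more than 2 units, against 16.7% of all genes. The 9 below that median were VAMP2, STX2, STX11, SNAP91, SYT9, SYT10, SYT14, RAB38 and RAB39A. VAMP2, the main neuronal synaptobrevin, averaged 4.46, so its probe set carried little information on that gene here. These 9 were tested nowhere, except RAB38 among the hippocampal fields, where it passed the filter; STX1A, SYT16, RAB3B and VAMP8 missed it in some comparisons.

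The range over the groups differed between members of the same machinery. RIMS3, a short RIM protein, spanned 4.97 log2 units from 6.69 in DG to 11.66 in V1 layer 4B. STXBP6 (amisyn), which binds syntaxin and SNAP25 and limits SNARE assembly, spanned 3.89 from 6.86 in V1 layer 4B to 10.75 in DG. STX12, an endosomal syntaxin, spanned 3.55 from V1 layer 4Ca to CA2, and CPLX2, a complexin, spanned 3.49 from magnocellular LGN to CA1. SYNPR (synaptoporin), a vesicle membrane protein, spanned 3.25 from V1 layer 4B to DG. Other genes varied little: SV2A, a vesicle glycoprotein, kept within 0.76 log2 units over all 57 groups, RAB3A within 0.94 and SYT1, the calcium sensor, within 1.12. A weaker SYT1 probe set spanned 2.84 and correlated with the one used at 0.17, while the other SYT1 probe sets correlated at 0.9 and 0.74. Layer 4B of V1 held the lowest group mean of STXBP6, SYNPR, SYN2, VAMP4, SYT16, STX1A, STX4 and STX18, and the highest of RIMS3, SNAP91 and UNC13D. The share of all genes lowest in that layer was not computed, so this is no trait of the members.

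**Figure D1:**
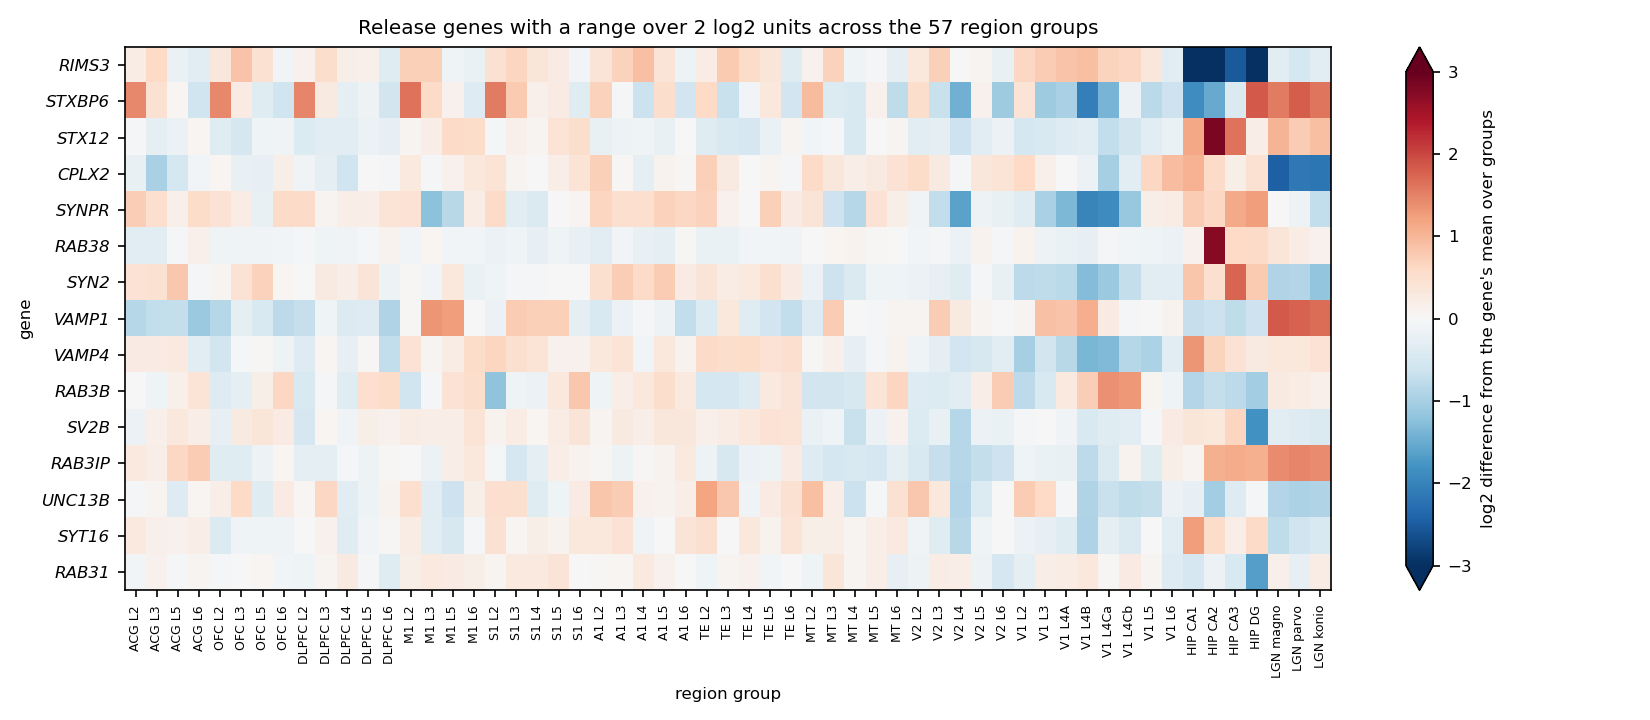
Heat map of the 15 members, RAB31 and RAB38 included, whose group means spanned more than 2 log2 units (rows) over the 57 region groups (columns). Colour gives the difference of the group mean from the gene's mean over the groups, in log2 units and capped at 3 either way. RIMS3 is low in every hippocampal group, and CPLX2 is low in the 3 LGN groups.

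The comparison of the LGN with the neocortex asked how the relay nucleus differs from cortex, with 1 mean per structure in each of 4 animals (females D and E, males A and C). A gene was called at a limma adjusted p under 0.05 with a difference of at least 1 log2 unit. VAMP1, a synaptobrevin abundant in rodent brainstem and spinal cord, had LGN levels of 9.7, 9.11, 9.12 and 9.05 in females D and E and males A and C, against 7.97, 7.3, 7.27 and 7.25 in neocortex. Every LGN value lay above every cortical value, and VAMP1 was 3.47-fold higher in the LGN (1.8 ± 0.06 log2 units, SE; adjusted p = 5.05e-10). CPLX2 went the other way, at 7.68, 7.74, 8.14 and 7.68 in the LGN against 10.26, 10.02, 10.2 and 10.12 in neocortex. It was 5.06-fold lower in the LGN (-2.34 ± 0.1; adjusted p = 1.61e-09), with no overlap between structures, and stood at -1.2 in the mean of its probe sets.

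In all, 8 of the 48 members tested were called between LGN and neocortex, beside 10.4% of all genes. The other 4 called higher in the LGN were STXBP6 (1.68 ± 0.13), RAB3IP, a regulator that binds RAB3A (1.59 ± 0.13), STX12 (1.05 ± 0.12) and SYNGR2, a synaptogyrin found mainly outside synapses (1.02 ± 0.08). STXBP6 read 10.65, 10.45, 10.66 and 10.52 in the LGN against 9, 8.87, 8.92 and 8.79 in neocortex, in the order of animals given above. The other 2 called lower were SYN2, a synapsin (-1.02 ± 0.1), and UNC13B, a priming factor (-1.01 ± 0.08). Both of these sat at the threshold: against the wide-set neocortex alone they stood at -0.94 and -0.95 and were no longer called, and each also dropped out when certain single animals were left out (SYN2 without female E or male C, UNC13B without female D, female E or male C). The call of SYNGR2 was lost without male A. In the mean of all probe sets of a gene, STXBP6 (0.82), STX12 (0.85), SYNGR2 (0.53) and SYN2 (-0.65) kept their sign but were not called. In bulk captures such as these, fewer cells of a type and less RNA per cell cannot be told apart.

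Judged by adjusted p without a size threshold, 21 members were higher in the LGN, beside 29.8% of all genes, and 14 were lower, beside 32.7%. The members' median difference was 0.04, against 0 over all genes. The families differed in their counts. Among the RAB30 to RAB39 genes 6 of 8 tested were higher and 0 lower (median 0.29), and among VAMPs 4 of 5 were higher and 0 lower (median 0.4). Among complexin, RIMS and UNC13 genes 0 of 4 were higher and 3 lower (median -0.84), RIMS3 among them at -0.67. Of the vesicle proteins, SV2A was higher (0.3 ± 0.07), and SV2B (-0.43), SYNPR (-0.28) and SYT1 (-0.19 ± 0.07) were lower. RAB3A was higher by 0.28 and STX1A, the plasma membrane syntaxin, lower by an estimate of -0.48. STX1A lay under the filter among the LGN arrays and passed here through the other structures, so its result is no support for a difference. Against the wide-set neocortex 31 of these 35 members kept the adjusted p and 4 lost it, among them RAB3A (0.05; adjusted p = 0.495) and SYNPR (-0.21; adjusted p = 0.0905), and SV2B moved to -0.2.

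Outside the members, presynaptic calcium channel genes were lower for 5 and higher for 2 of 7 tested, with CACNA1B, the pore of the N-type channel, at -3.91 ± 0.16 and CACNB1 and CACNB3 also called lower. Of other release regulators, 3 of 11 were higher and 5 lower, with CADPS2, a factor for dense-core vesicle release, at -5.46 ± 0.22 and the calcium sensor DOC2A at -2.12 ± 0.1. SLC17A7, the vesicular glutamate transporter of cortical neurons, was lower by an estimate of -3.16 ± 0.09, and of 9 active zone scaffold genes 0 were higher and 4 lower, PPFIA2 being called at -1.82. Endocytosis genes split evenly at 5 higher and 5 lower of 16 tested, and 1 of 5 proton pump genes was higher. The mean level of 3 oligodendrocyte markers was 11.59 to 11.75 in the LGN animals and 10.58 to 10.94 in neocortex. By adjusted p 2 of these 3 were higher in the LGN and 1 was lower. The mean of 4 excitatory neuron markers was 5.94 to 6.03 against 7.62 to 7.75. That of 2 neuron markers, STMN2 and GAP43, was 11.88 to 12.15 against 11.45 to 11.56. Of the excitatory markers 3 were tested, and 2 of them, SLC17A7 and NEUROD6, were lower. NRN1 passed in neither direction, at 10.57 to 10.81 in the LGN divisions. CAMK2A, at 4.32 to 4.47 there, lay under the filter. Of 5 inhibitory neuron markers PVALB was higher in the LGN by 4.19 ± 0.11 and 3 were lower, with a median of -0.75 over the 5. PVALB marks fast-spiking interneurons in cortex, and these bulk captures do not show which LGN cells carried it. The part of these markers in the results was not tested.

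**Figure D2:**
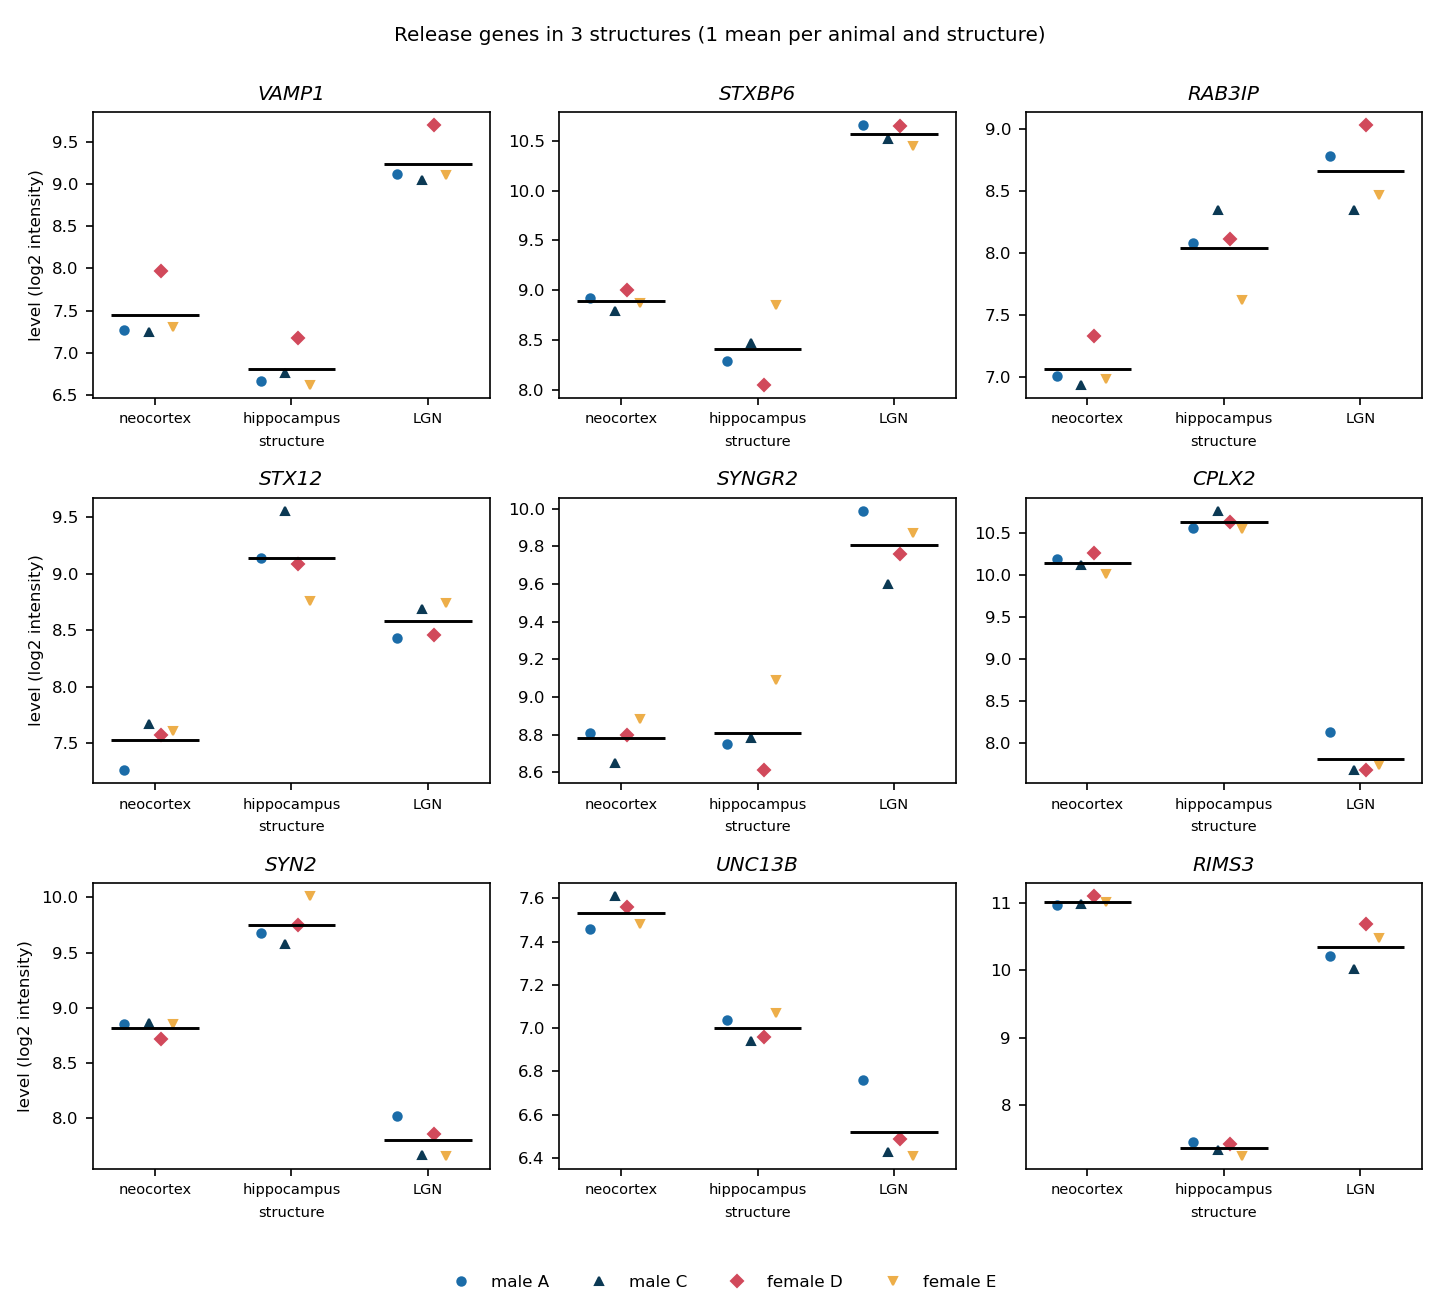
Levels (log2 intensity) of 9 release genes in neocortex, hippocampus and LGN. Each point is 1 animal's mean over its arrays of that structure, bars are means of the 4 animals, and axes do not start at 0. VAMP1 and STXBP6 stand highest in the LGN, CPLX2 lowest there, and RIMS3 lowest in the hippocampus.

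Between hippocampus and neocortex fewer members were called than between LGN and neocortex, as were fewer of all genes. RIMS3 read 7.43, 7.25, 7.45 and 7.34 in the hippocampus of females D and E and males A and C, against 11.1, 11.01, 10.97 and 10.99 in their neocortex. The structures did not overlap, and RIMS3 was 12.6-fold lower in the hippocampus (-3.65 ± 0.1; adjusted p = 3.31e-10; -1.97 in the mean of its probe sets). STX12 read 9.09, 8.76, 9.14 and 9.56 against 7.57, 7.61, 7.26 and 7.67 and was higher in the hippocampus by 1.61 ± 0.12 (adjusted p = 7.01e-07). These 2 of 48 members were called, beside 6.06% of all genes. With the neocortex of the wide control set alone, a comparison added after the data were seen, 5 were called: RIMS3 (-3.54), STX12 (1.77), RAB3IP (1.26), SYNPR (1.04) and SYN2 (1.02).

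The last 3 of these stood just below the threshold against all neocortex, at 0.97 ± 0.13 for RAB3IP, 0.97 ± 0.08 for SYNPR and 0.93 ± 0.1 for SYN2. On the adjusted p alone 11 members were higher in the hippocampus, beside 26.8% of all genes, and 17 lower, beside 23.5%. Among those lower were RAB3B, a RAB3 form (-0.88 ± 0.12), VAMP1 (-0.64 ± 0.06), UNC13B (-0.53) and SYT1 (-0.24), whereas CPLX2 was higher (0.48 ± 0.1). RAB3B lay under the filter among the hippocampal arrays and passed here through the other structures, so its result is no support for a difference. Against the wide-set neocortex 24 of the 28 kept the adjusted p. The median over the members was -0.02, against 0.01 over all genes. Active zone scaffold genes were higher for 6 and lower for 1 of 9 tested, with ERC1 called higher, and the priming factor CADPS was called at 1.29, the endocytic adaptor STON2 at 1.09, SLC17A7 at 1.14 and the calcium channel subunit CACNA2D2 at -1.46. All 5 inhibitory neuron markers tested were lower, with a mean level of 7.1 to 7.44 in the hippocampus against 8.56 to 8.72 in neocortex, and the 3 oligodendrocyte markers averaged 9.8 to 10.07 against 10.58 to 10.94. Their part in these differences was not tested.

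Within the hippocampus the fields differed by at least 1 log2 unit in 12 of 47 members tested, beside 19.2% of all genes, and 32 passed the adjusted p alone, beside 64.2%. Of the 12 called, 3 were RAB30 to RAB39 genes (RAB31, RAB33B and RAB38). The comparison covered CA1, CA2, CA3 and DG in the same 4 animals. STXBP6 had the widest range, from 7.05 ± 0.51 (SD, n = 4) in CA1 through 7.39 in CA2 and 8.47 in CA3 to 10.75 ± 0.19 in DG. In DG the animals read 10.78, 10.97, 10.74 and 10.51 in the order given above, all above the highest CA3 value of 8.99. STX12 was highest in CA2 (10.51 ± 0.1) and lowest in DG (7.89 ± 0.52), with CA2 values of 10.4 to 10.64 that overlapped no other field. RAB38, a RAB protein known from melanosome traffic in pigment cells, was at 6.51, 6.94, 6.12 and 7.03 in CA2 and averaged 4.05 in CA1, 4.52 in CA3 and 4.5 in DG. CA2 was the 1 group of the 57 whose RAB38 mean exceeded the median of all probe sets, 4.76. RAB38 passed the filter through CA2 alone, so its call among the fields is no support for a difference, and without it 11 of 46 members were called.

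SYN2 was highest in CA3, at 10.55 ± 0.37, against 9.27 to 9.62 in the other fields (adjusted p = 2.18e-06). RIMS3 also peaked in CA3, at 8.24 ± 0.13, and was lowest in DG, at 6.69 ± 0.11, all within its low hippocampal range. VAMP4, a SNARE of the trans-Golgi network, and SYT16 were highest in CA1, at 8.15 and 6.59, and RAB3IP was lowest there, at 7.29. The calls of VAMP4 (without male A or male C), SYT16 and RAB3IP (both without female E) dropped under the threshold with an animal left out. VAMP4 (0.94) and RIMS3 (0.95) also missed it in the mean of their probe sets. RAB33B, a Golgi RAB protein, had a range of 1.12. The other called members, SV2B, RAB31 and SYNGR2, were all lowest in DG.

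Members that set DG apart from the CA fields were mostly lower there. SV2B, a vesicle glycoprotein, read 9.75, 9.86, 9.81 and 9.93 in DG, while its 12 CA values lay between 11.7 and 12.39. That 4.8-fold lower level (-2.26 ± 0.08; adjusted p = 3.12e-11) was without overlap. STXBP6 was the exception in direction, 8.67-fold higher in DG than the mean of the CA fields (3.12 ± 0.13; adjusted p = 1.14e-10), and by 2.73 to 3.65 in single animals. STX12 (-1.66 ± 0.14), the endosomal RAB31 (-1.28 ± 0.1) and SYNGR2 (-1.07 ± 0.08) were also called lower. These were 5 of 47 members, beside 10.3% of all genes. In the mean of all probe sets of a gene STXBP6 stood at 1.62, and RAB31 (-0.93) and SYNGR2 (-0.95) were not called.

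Without the size threshold 10 members were higher in DG, beside 30.6% of all genes, and 20 lower, beside 29.8%. The members' median difference was -0.15, against -0.01 over all genes. Synaptotagmins gave 0 higher and 5 lower of 6 tested (median -0.45), among them SYT1 (-0.66 ± 0.1), SYT3 and SYT12, and VAMPs gave 0 higher and 3 lower of 4 (median -0.48). RAB3A (-0.71 ± 0.08), STX1A (-0.69), RIMS3 (-0.91) and SYN2 (-0.23) were lower as well. SYNPR, a protein enriched in the mossy fibre terminals of dentate granule cells in rodents, was higher in DG by 0.43 ± 0.09, UNC13B by 0.51 and STX16, a Golgi syntaxin, by 0.83 ± 0.13. Of 15 endocytosis genes 3 were higher and 7 lower, with AMPH (-1.68), DNM3 (-1.54) and SH3GL2 (-1.25) called. CADPS2 (-3.6 ± 0.17) and CACNA1B (-2.52) were called lower, and SV2C (2.07) and PPFIA2 (2.13) higher. The mean of 2 neuron markers, STMN2 and GAP43, was 8.87 to 9.97 in DG against 11.3 to 11.89 in the CA fields. Other neuron markers split in direction. Of 3 excitatory ones tested 1 was higher in DG and 2 lower, and of 5 inhibitory ones 2 were higher and 3 lower. NRN1 averaged 11.6 in DG against 10.56 to 11.04 in the CA fields, and GAD1 12 against 9.73 to 10.89. The mean of 3 oligodendrocyte markers was 8.56 to 9 in DG against 9.1 to 11.1. All 5 microglia markers tested were lower in DG, and of 4 astrocyte markers 2 were higher and 2 lower. The part of these markers in the result was not tested.

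**Figure D3:**
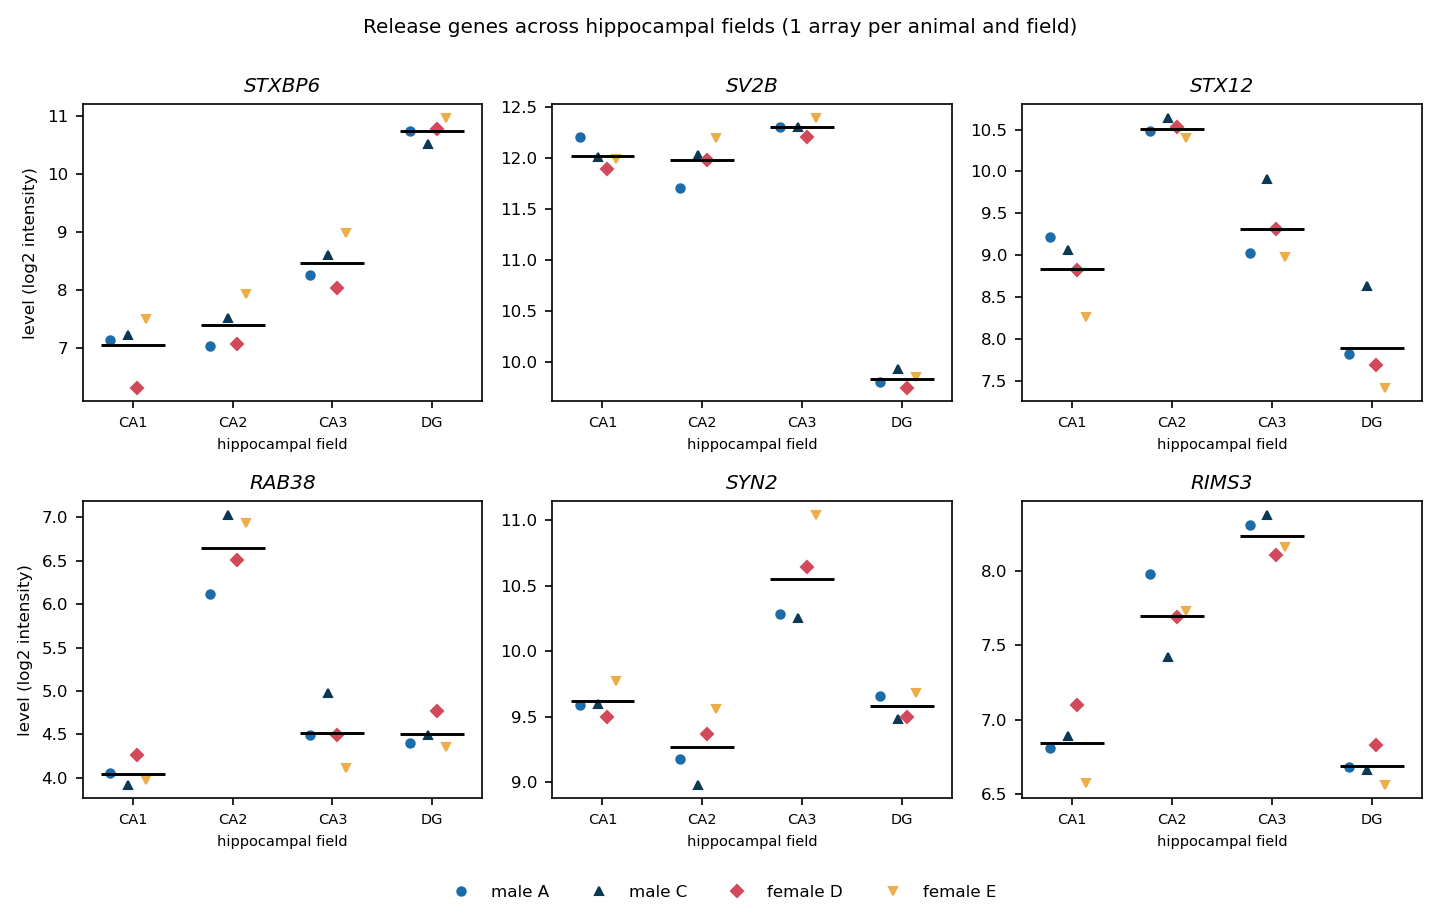
Levels (log2 intensity) of 6 release genes in CA1, CA2, CA3 and DG. Each point is 1 array of 1 animal, bars are means of 4 animals, and axes do not start at 0. STXBP6 is highest and SV2B lowest in DG, STX12 and RAB38 peak in CA2, and SYN2 and RIMS3 peak in CA3.

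Cortical areas were compared on the mean of layers 2, 3, 5 and 6 in each animal, giving 38 animal and area means with 4 animals per area, except M1 and A1 with 3. Of 48 members, 8 ranged by at least 1 log2 unit among the 10 areas, beside 9.21% of all genes, and 39 passed the adjusted p alone, beside 76.7%. VAMP1 (1.48), VAMP4 (1.23) and VAMP8 (1.09) were 3 of them, and the median range of the 5 VAMPs tested was 1.09 against 0.5 for all members and 0.5 for all genes. The others were RAB37, a RAB protein of regulated secretion (1.14), SYN2 (1.1), CPLX2 (1.1), RAB3IP (1.06) and STXBP6 (adjusted p = 2.09e-08). VAMP8, a SNARE of late endosomes and secretory granules, had the weakest test (adjusted p = 0.0144) and was not called without female D, male A or male C. RAB3IP was not called without female E. Within the narrow control set 6 of the 8 were called and within the wide set 0, and the mean of a gene's probe sets left VAMP1 and RAB37.

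VAMP1 was lowest in ACG, at 7.02, 6.48, 6.71 and 6.33 in females D and E and males A and B. Its mean was 6.9 in OFC, 6.96 in DLPFC, 7.14 in TE, 7.2 in A1, 7.59 in MT, 7.72 in V2 and 7.75 in both S1 and V1. M1 stood highest at 8.15, from values of 8.81, 8 and 7.63 in female D and males A and C, so that neighbours in this order overlapped. Female D had the highest VAMP1 mean in each of the 9 areas it was captured in. CPLX2 also was lowest in ACG, at 9.83, 9.33, 9.62 and 9.66, and highest in V1, at 10.99, 10.58, 10.38 and 10.61 in females D and E and males A and C, without overlap. SYN2 ran the other way, with V1 lowest at 8, 8.37, 8.28 and 8.33 and A1 highest at a mean of 9.33.

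**Figure D4:**
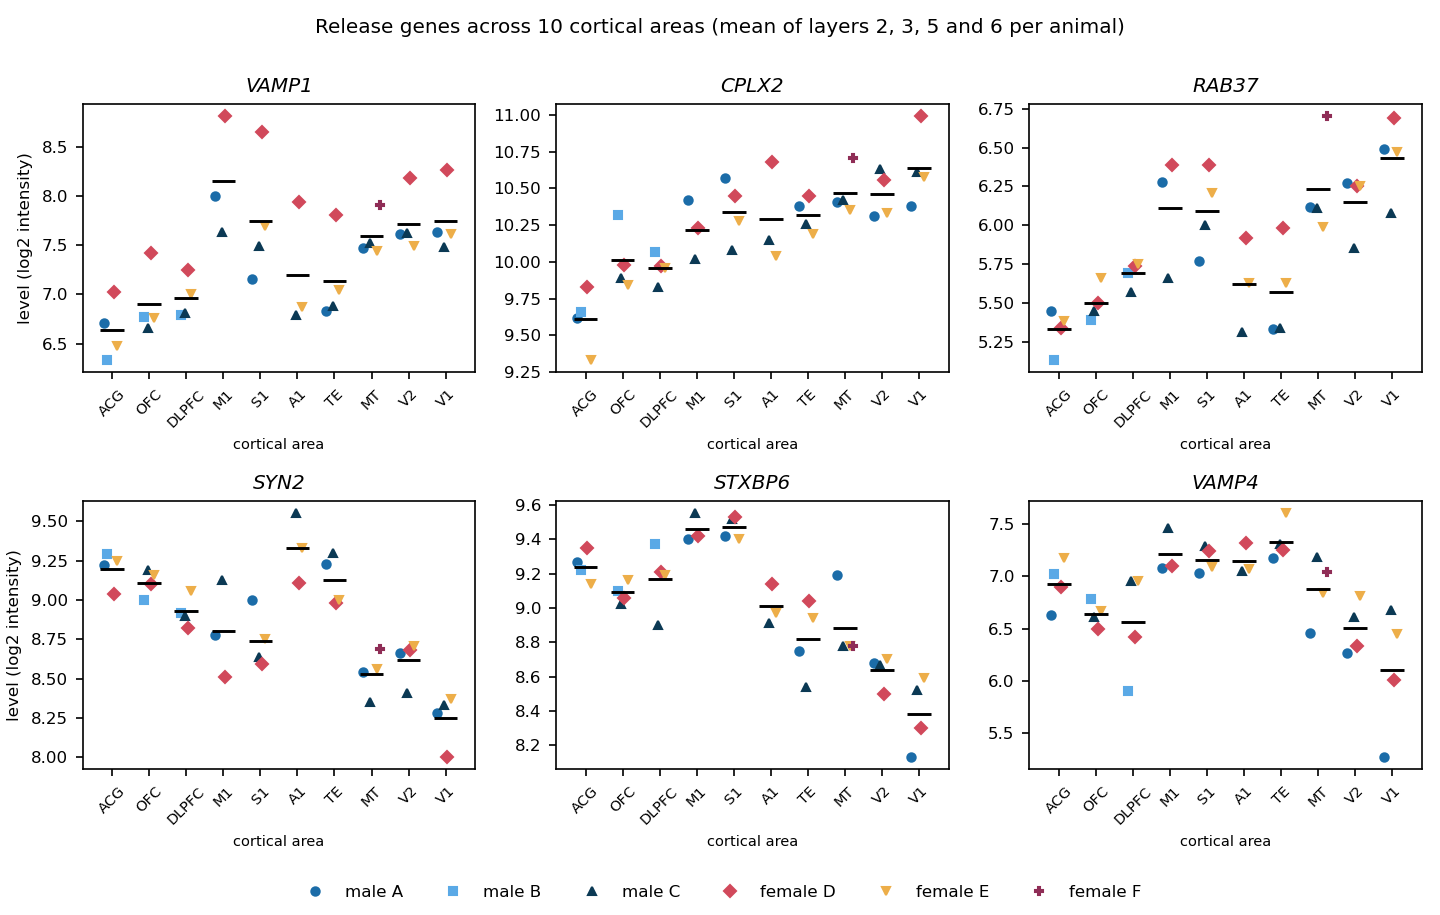
Area means (log2 intensity, layers 2, 3, 5 and 6) of 6 release genes in the 10 neocortical areas. Each point is 1 animal, bars are means of 4 animals (3 in M1 and A1), and axes do not start at 0. VAMP1, CPLX2 and RAB37 are lowest in ACG, while SYN2, STXBP6 and VAMP4 are lowest in V1.

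A contrast of the visual areas V1 and V2 with the frontal areas ACG, OFC and DLPFC called 0 of 48 members by limma, beside 1.47% of all genes, although 27 had an unadjusted p under 0.05. By adjusted p alone 7 members were higher in the visual areas, beside 15.7% of all genes, and 14 lower, beside 26.9%. VAMP1 was higher by 0.91 ± 0.09 (adjusted p = 9.03e-10), with single animals between 0.81 and 0.99, RAB37 by 0.78 ± 0.08 and CPLX2 by 0.75 ± 0.08. SYN2 (-0.67 ± 0.07), STXBP6 (-0.63 ± 0.08) and SYNPR (-0.6 ± 0.07) were lower, and 4 of 5 VAMPs were lower with VAMP1 as the exception, although none of those 4 passed within both control sets. The median over members was -0.05, against -0.03 over all genes. Estimates were smaller between V2 and OFC with DLPFC in the wide set than between V1 and ACG in the narrow one: 0.79 and 1.13 for VAMP1, 0.52 and 1.1 for CPLX2, 0.54 and 1.14 for RAB37, and -0.43 and -0.97 for SYN2. For VAMP4 they were -0.04 (adjusted p = 0.866) and -0.91, and for VAMP5 -0.15 (adjusted p = 0.25) and -0.29. For VAMP7 they were -0.37 and -0.16 (adjusted p = 0.201), and VAMP8 passed in neither set (adjusted p = 0.104 and 0.0631). Of the 21 members that passed the adjusted p, 13 kept it between V1 and ACG, and 13 between V2 and OFC with DLPFC. These were not the same 13 genes, and 2 of the 21 had the opposite sign between V1 and ACG. CADPS2 was called higher at 1.22. Of 5 inhibitory neuron markers PVALB was higher in the visual areas by 2.64 ± 0.24 and 3 were lower (median -0.17), and their part was not tested.

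V1 against the other 9 areas likewise called 0 members by limma, beside 1.19% of all genes, with 23 at an unadjusted p under 0.05. At the adjusted p alone 5 were higher, beside 14.2% of all genes, and 17 lower, beside 30.4%. VAMP4 was lower by an estimate of -0.81 ± 0.12 (adjusted p = 4.62e-06), with single animals from -1.5 to -0.38 and V1 values of 6.01, 6.45, 5.27 and 6.68 in females D and E and males A and C. Within V1's own control set VAMP4 reached -1.05 and was called. STXBP6 (-0.7 ± 0.08), SYN2 (-0.69 ± 0.08), SYNPR (-0.43), STX1A (-0.34) and SYT1 (-0.12 ± 0.05; adjusted p = 0.0488) were lower, and RAB37 (0.63 ± 0.09), CPLX2 (0.48 ± 0.08) and VAMP1 (0.41 ± 0.09) were higher. STX1A lay under the filter among the V1 arrays and passed here through the other areas, so its result is no support for a difference. The median difference was -0.08 over members and -0.06 over all genes. Within V1's control set 20 of the 22 kept the adjusted p, which cannot separate V1 from a batch of its own. The 2 neuron markers STMN2 and GAP43 averaged 11.12 in V1 against 11.38 in V2, the next lowest area, and 11.79 in ACG, the highest. Of 3 excitatory neuron markers tested 1 was higher in V1 and 2 were lower. Of 5 microglia markers 4 were lower in V1 (median -0.54), and the part of these markers was not tested.

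M1 against the other areas called 0 of 48 members by limma, beside 0.252% of all genes, with 17 at an unadjusted p under 0.05. Here 9 members were higher by adjusted p alone, beside 11.5% of all genes, and 2 lower, beside 3.55%. VAMP1 led with 0.8 ± 0.11 (adjusted p = 8.66e-06; 0.47 to 0.99 in 3 animals), followed by STX12 (0.53 ± 0.08), STXBP6 (0.5 ± 0.09) and VAMP4 (0.49 ± 0.14), the last at 0.35 within M1's control set (adjusted p = 0.172). SYNGR2 (0.48 ± 0.08) and SV2B (0.26) were higher too, SV2B at 0.14 within the set (adjusted p = 0.206), and SYNPR (-0.42 ± 0.09) and UNC13B (-0.28) were the 2 lower. Within M1's control set 7 of the 11 kept the adjusted p. The members' median was 0.03, against 0.04 over all genes. SV2C, the third SV2 gene and no member here, was called at 1.31 ± 0.11. The 3 oligodendrocyte markers averaged 11.08 to 11.66 in M1, overlapping S1 (11.03 to 11.22) and MT (10.8 to 11.13), and 9.68 to 10.44 in ACG, the lowest area. PVALB, the 1 of 5 inhibitory neuron markers to pass, was higher in M1 by 1.1. Their part was not tested.

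ACG against the other areas also called 0 members by limma, beside 1.18% of all genes, with 23 at an unadjusted p under 0.05. Regardless of size, 7 were higher by adjusted p, beside 18.7% of all genes, and 10 lower, beside 13.2%. VAMP1 (-0.84 ± 0.1; adjusted p = 9.97e-08) and CPLX2 (-0.75 ± 0.09; adjusted p = 8.42e-08) were lower, and within ACG's control set they stood at -0.94 and -0.81. RAB37 (-0.63 ± 0.09) and RAB30 (-0.57 ± 0.1) were lower, as were UNC13B (-0.35) and RIMS3 (-0.23), so that 3 of 4 complexin, RIMS and UNC13 genes were lower and 0 higher. RAB3IP (0.63 ± 0.1), SYN2 (0.39 ± 0.08) and SYNPR (0.33) were higher. The median over members was -0.01, against 0.02 over all genes. CADPS2 was called lower at -1.35 ± 0.11. Within ACG's control set 14 of the 17 kept the adjusted p. In the same contrast 1 inhibitory neuron marker of 5 was higher and 2 lower, PVALB at -2.41, and of 3 oligodendrocyte markers 2 were lower, MBP at -1.35. Their part was not tested.

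Layers 2 to 6 were compared over the 6 areas with all 5 layers, in 4 animals, after each array was centred within its animal and area. Of 48 members, 3 were called, beside 6.6% of all genes, and 32 passed the adjusted p alone, beside 62.3%. STXBP6 read 9.86, 9.87, 9.78 and 9.85 in layer 2 and 8.34, 8.22, 8.23 and 8.26 in layer 6 of females D and E and males A and C. Its means ran 9.84, 8.75, 8.46, 9.1 and 8.26 from layer 2 to layer 6, with a smaller second peak in layer 5 (adjusted p = 6.98e-13). RAB3B was lowest in layer 2 and highest in layer 6, with means of 4.78, 5.1, 5.08, 5.69 and 5.94 (adjusted p = 6.88e-09). UNC13B dipped in layer 4, with means of 8.17, 7.98, 7.05, 7.35 and 7.68 (adjusted p = 4.79e-09). In the mean of their probe sets STXBP6 (0.56) and RAB3B (0.86) were not called. CPLX2 ranged by 0.63 among the layers and SYT1 moved between 12.72 and 13.1.

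The deep layers 5 and 6 against the upper layers 2 and 3, over each animal's own areas with all 4 layers in 5 animals, called 0 members by limma, beside 2.13% of all genes, with 18 at an unadjusted p under 0.05. By adjusted p alone 9 were higher in the deep layers, beside 16.8% of all genes, and 4 lower, beside 14.9%. STXBP6 was lower in the deep layers, at 8.63, 8.59, 8.64, 8.68 and 8.56 against 9.5, 9.38, 9.31, 9.77 and 9.31 in females D and E and males A, B and C (-0.84 ± 0.06; adjusted p = 8.68e-06), without overlap. RAB3B was higher by 0.79 ± 0.05 (adjusted p = 3.06e-06), with every animal between 0.67 and 0.94. RIMS3 (-0.55 ± 0.06), UNC13B (-0.48 ± 0.08) and VAMP1 (-0.25 ± 0.06) were the other 3 lower, and RAB33B (0.34 ± 0.04), SYT1 (0.27 ± 0.05) and SV2B (0.24 ± 0.07) were among those higher, all with 1 sign in 5 of 5 animals. Male B's values cover 3 frontal areas (ACG, OFC and DLPFC), and those of the others 7 to 9 areas. The members' median was 0.02, against 0 over all genes. The 3 oligodendrocyte markers averaged 11.1 to 11.43 in deep and 9.46 to 10.33 in upper layers, and their part was not tested.

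V1 was tested on single arrays of its 8 layers, whereas values for layers 2 to 6 were means over areas. The median range in V1 was 0.65 over members and 0.67 over all genes. Among layers 2 to 6 it was 0.24 and 0.26, so the wider ranges in V1 were not particular to the members. Among the 8 V1 layers 9 of 47 members were called, beside 14.7% of all genes, and 14 passed the adjusted p alone, beside 25.7%. Of the 4 complexin, RIMS and UNC13 genes 3 were called: CPLX2 (range 1.95), UNC13B (1.68) and RIMS3 (1.23). The others were STXBP6 (2.46), SYNPR (2.21), RAB3B (2.16), RAB37 (1.44), SYNGR4, a synaptogyrin (1.22), and VAMP1 (1.14), the last at 0.95 and not called without male C. In the mean of all probe sets of a gene, STXBP6 (0.92), SYNPR (0.82) and RIMS3 (0.62; adjusted p = 0.17) were not called. STXBP6 ran from 9.32 in layer 2 to 6.86 in layer 4B and stood at 8.72 in layer 4Cb, and SYNPR ran from 9.36 in layer 4B to 11.57 in layer 6. VAMP1 peaked at 8.58 in layer 4B, and UNC13B was highest in layer 2, at 8.2, and lowest in layer 4B, at 6.52. Oligodendrocyte markers averaged 9.46 in layer 2 and 11.28 in layer 4B, and their part was not tested.

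Layer 4C, the main target of LGN axons, was then set against the other V1 layers. RAB3B read 6.66, 8.09, 5.97 and 6.22 in layer 4Ca and 6.87, 7.58, 5.51 and 6.66 in layer 4Cb of females D and E and males A and C. In layer 2 it averaged 4.57, and the 4C layers were higher than the rest by 1.39 ± 0.2 (adjusted p = 1.24e-05), with single animals from 0.81 to 1.93. CPLX2 read 9.37, 9.23, 8.49 and 9.14 in layer 4Ca and 10.23, 9.47, 9.44 and 9.79 in layer 4Cb, against means of 10.67 in layer 2 and 11 in layer 6. It was lower in layer 4C by an estimate of -1.03 ± 0.11 (adjusted p = 2.27e-07), and it was not called at -0.93 without male A or at -0.62 in the mean of its probe sets. These 2 of 47 members were called, beside 1.91% of all genes.

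By adjusted p alone RAB3B was the 1 member higher in layer 4C, beside 5.34% of all genes, and 7 were lower, beside 7.9%. After CPLX2 those lower were RAB37 (-0.91 ± 0.12), SYNPR (-0.8 ± 0.1), UNC13B (-0.63 ± 0.12), SYNGR4 (-0.61 ± 0.11), VAMP1 (-0.4 ± 0.11) and SV2B (-0.28 ± 0.08). The median over members was -0.05, against -0.01 over all genes. SV2C (-1.9 ± 0.26), DOC2A (-1.41 ± 0.14) and CACNA1B (-1.63 ± 0.1) were called lower in layer 4C. The mean of the neuron markers STMN2 and GAP43 was 10.56 in layer 4Ca and 10.33 in layer 4Cb. It was 10.67 in layer 2, the lowest of the other layers and within the 4Ca range, and 11.35 in layer 6, the highest. STMN2 alone averaged 11.52 in layer 4Ca and 11.4 in layer 4Cb against 11.14 in layer 2, and GAP43 9.61 and 9.26 against 10.2. Of 3 excitatory neuron markers tested 0 were higher in layer 4C and 1 was lower. Of 5 inhibitory ones 1 was higher and 1 lower. The part of these markers was not tested.

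**Figure D5:**
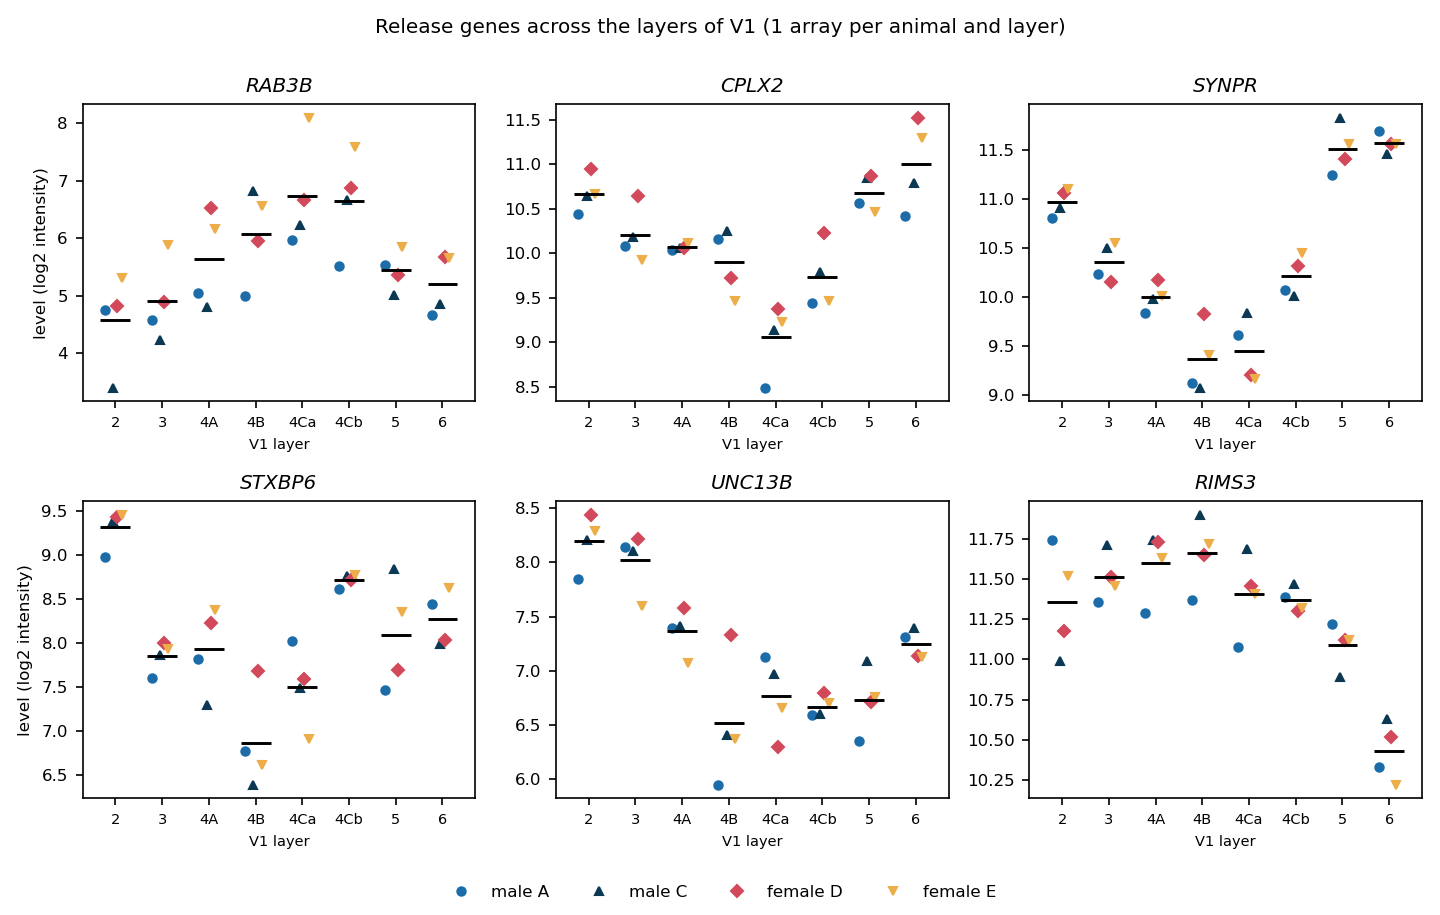
Levels (log2 intensity) of 6 release genes across the 8 layers of V1. Each point is 1 array of 1 animal, bars are means of 4 animals, and axes do not start at 0. RAB3B peaks in layers 4Ca and 4Cb, where CPLX2 is low, and SYNPR is highest in layers 5 and 6.

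Whether the deep to upper difference in V1 departs from that in other areas was tested as an interaction. SYNPR was higher in the deep layers of V1 by 0.88, 0.74, 0.96 and 0.93 in females D and E and males A and C, while in their other areas the difference was -0.15, -0.02, 0.17 and 0.13. The difference of these differences was 0.85 ± 0.11 (adjusted p = 0.0286) and had 1 sign in 4 of 4 animals. These values are from the SYNPR probe set used. Its further probe sets spanned 0.75 and 0.74 log2 units over the 57 groups and correlated with it at 0.04 and 0.13. By limma 0 of 48 members passed the size threshold as well, beside 0.533% of all genes, and 8 had an unadjusted p under 0.05. SYNPR was the 1 member higher by adjusted p alone, beside 0.485% of all genes, and 0 were lower, beside 0.33%.

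Among the magnocellular, parvocellular and koniocellular layers of the LGN, limma called 0 of 46 members, beside 0.399% of all genes, and 0 passed the adjusted p alone, beside 3.07%. At an unadjusted p under 0.05 there were 7 members, and 13.6% of all genes. VAMP1 averaged 9.32, 9.25 and 9.17 in the 3 divisions and CPLX2 7.62, 7.92 and 7.89. SYNPR averaged 11.32, 11.19 and 10.59 and was the member that changed with the samples used: without female D its range was 1.07 (adjusted p = 0.015).

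Several of these genes had more than 1 probe set, and they did not always follow each other. Of 44 further probe sets for 23 members, 33 correlated at under 0.5 with the one used over the 57 group means, values that share the same arrays. For SYN2 they correlated at 0.84 and 0.83, for RAB3IP at 0.87 and for RAB3B at 0.73, whereas for CPLX2 the value was 0.26, for RIMS3 0.42 and for SYNPR 0.04 and 0.13. VAMP1, SV2B, UNC13B, RAB37 and RAB38 had a single probe set, so this check could not be made for them.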

How the data were processed

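Total RNA from laser captures (5 ng) was amplified in 2 cycles and hybridised, per the labels' protocols. The authors deposited log10 intensities, for which they ran RMA, per the file headers, in Matlab 2007b within each amplification batch before scaling each probe set on whole brain controls. These values were multiplied by 3.32 to give log2; log2 values had been assumed when the tests were designed. Of 52865 probe sets, 24969 carried 1 gene symbol, 361 several and 27535 none; the probe set with the highest mean stood for a gene. Genes whose mean did not exceed the median of all probe sets were left out. Tests used limma 3.58.1 in R 4.3.3, with the animal as block and Benjamini-Hochberg adjustment over all genes tested; a gene was called at an adjusted p under 0.05 and at least 1 log2 unit (for F tests, the range of fitted means). The animal identity in the labels pairs the samples: deviations from group means correlated at a median of 0.174 within animals and -0.0493 between them. The scripts were tested on simulated data. The number of arrays limits the precision.

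The named genes are the called members with the largest changes (up to 6 each way, 8 for F tests), the core release genes, the called genes of related lists and the members with the widest ranges; others were added after their values were seen. Members and lists were chosen with earlier results of these data known. Alternatives were no animal block, no filter, the mean of a gene's probe sets, median-centred arrays, leaving out an animal, and fits within a control set.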

Additional observations from a re-analysis of the deposited data

Results flagged for a closer look

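STX12 in DG against the CA fields differed by -1.24 in male C, apart from the other 3 animals at -1.87 to -1.76. Its DG value was 8.63 in male C against 7.42 to 7.82 in the others. Among 17 such tests of a sample far from its group, chance alone marks about 1 in 20 groups.

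SYNPR was marked because its deep to upper difference, in the probe set used, differed between V1 and other areas, by 0.85 log2 units in the test of that difference.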

How the results depend on the processing

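Counts of called members stayed within 1.5 times the reported one in 129 recomputations and moved further in 10. With the mean of all probe sets of a gene, the count fell to 1 among layers 2 to 6 (UNC13B), to 2 among areas (RAB37 and VAMP1), to 1 for layer 4C (RAB3B), to 3 for DG against CA (STX12, STXBP6 and SV2B) and to 4 for the LGN against neocortex (CPLX2, RAB3IP, UNC13B and VAMP1); poorly correlated probe sets enter that mean, and the cause was not tested further. Among areas of the wide control set alone 0 members were called. V1 against the other areas of its set called 1 (VAMP4). The hippocampus against wide-set neocortex, added after the data were seen, called 5. Leaving out 1 animal gave 1 to 2 called members for layer 4C and 0 to 1 for the LGN divisions. Without the replicate block (the animal) the counts stayed at 3 for layers, 8 for areas, 9 for V1 layers, 12 for hippocampal fields, 5 for DG, 8 for the LGN and 2 for the hippocampus, and the block changed no call. Single gene calls were kept in 386 recomputations, lost in 47 and reversed in 0. Signal above background limits what can be said of the 9 members under the filter.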
